A study of Homo sapiens with 4 samples.

Results

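Zinc finger genes of the 19p12 cluster lie next to each other on the short arm of chromosome 19, close to the centromere, and most of them encode KRAB zinc finger proteins. They were chosen as 34 listed gene symbols, and 34 of 34 were found among the 28278 genes of the table. On the hg38 assembly (RefSeq) they span chromosome 19 from 19710472 to 24129968, with ZNF14 at the end away from the centromere and ZNF254 nearest to it. Levels are given in CPM, counts scaled to library size, and fold changes were read for the 7 members whose mean reached 1 CPM.

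The series compared polyA RNA of cells labelled HepG2, a human liver cancer line, that were infected with lentiviruses carrying a short hairpin RNA. There was 1 library of Control hairpin cells, 1 for each of 2 hairpins against ATF7IP and 1 for a hairpin against SETDB1. Sorafenib, which inhibits several kinases, was given to every group at 10 µM for 48 hours, Control included, so no value describes untreated cells. Control and SETDB1 knockdown have no replicate, and the 2 ATF7IP libraries came from different hairpins, so their spread holds both hairpin and library differences.

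A KRAB zinc finger protein binds DNA through an array of C2H2 zinc fingers, and its KRAB domain recruits the scaffold protein TRIM28. TRIM28 brings the histone methyltransferase SETDB1, which deposits trimethylated lysine marks on histone H3, and ATF7IP is a partner that stabilizes SETDB1 in the nucleus. The genes of this family arose by repeated duplication, often bind retrotransposons, and many of their own gene bodies are known to carry the repressive mark that SETDB1 makes.

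Library totals ranged from 70236882 to 73791097 counts. Liver markers did not bear out the HepG2 label: ALB, APOB, TTR and AFP were at 0 counts in all 4 libraries, and 0 of 10 hepatocyte markers reached 1 CPM in every library. The fibroblast and stellate markers were above 1 CPM in every library for 6 of 7 genes, with a summed level of 486.8 CPM in Control and 227.1 to 299.1 in the knockdowns, and COL3A1 at 154.5 to 335.5 CPM. Their part in any difference between Control and the knockdowns was not tested, and of the 4 endothelial and 5 blood markers only CD68 passed 1 CPM. The libraries are therefore called by their hairpin, and HepG2 stands for the label alone. ATF7IP was at 59.1 CPM in Control, 18.25 and 18.8 with its hairpins 1 and 2, and 97.8 in SETDB1 knockdown, while SETDB1 was at 47.7, 52.1, 46.75 and 11.99 CPM in the same order. Against Control each target was lower in its own knockdown, by a log2 fold change of −1.67 ± 0.24 (SE) for ATF7IP and −1.99 ± 0.31 for SETDB1, with edgeR adjusted p of 0.0571 and 0.117. Ribosomal RNA genes took 0.3245% of the counts in Control, 0.4889% with ATF7IP hairpin 1, 0.4076% with hairpin 2, and 0.7209% after SETDB1 knockdown.

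Promoters of the cluster share sequence words, in expressed and silent members alike, and 5 of them are shown for this. The RefSeq promoter table (GRCh38.p14) held 26 of the 34 members, with windows of 250 bases before and 50 after the start. Shown 5′ to 3′ on the gene's own strand are the 250 bases before the start of the 2 most abundant members (ZNF714 and ZNF431), of the expressed neighbour ZNF430, of ZNF43, at 0 counts in all 4 libraries, and of ZNF208, seen in SETDB1 knockdown alone. A start here is the one the table uses, which was the outer end of the annotated gene for 23 of the 26. For ZNF254, ZNF730 and ZNF43 it was an internal start, in ZNF43 15.9 kb inside the gene. Capitals mark CCAATCAG, an octamer that holds the CCAAT box bound by the factor NF-Y.
ZNF714: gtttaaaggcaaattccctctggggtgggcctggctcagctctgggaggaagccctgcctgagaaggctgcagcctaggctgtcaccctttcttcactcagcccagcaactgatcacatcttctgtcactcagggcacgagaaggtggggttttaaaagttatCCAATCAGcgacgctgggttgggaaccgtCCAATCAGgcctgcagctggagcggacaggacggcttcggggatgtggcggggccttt
ZNF431: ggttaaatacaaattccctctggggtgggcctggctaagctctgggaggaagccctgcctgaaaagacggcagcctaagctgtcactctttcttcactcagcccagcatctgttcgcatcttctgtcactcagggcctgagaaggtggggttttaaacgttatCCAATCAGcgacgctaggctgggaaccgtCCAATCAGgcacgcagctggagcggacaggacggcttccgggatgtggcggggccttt
ZNF430: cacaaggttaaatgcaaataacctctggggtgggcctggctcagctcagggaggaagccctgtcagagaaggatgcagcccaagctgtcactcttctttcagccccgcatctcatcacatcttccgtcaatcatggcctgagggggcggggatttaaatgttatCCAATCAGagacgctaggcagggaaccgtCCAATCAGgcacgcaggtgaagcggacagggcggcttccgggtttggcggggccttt
ZNF43: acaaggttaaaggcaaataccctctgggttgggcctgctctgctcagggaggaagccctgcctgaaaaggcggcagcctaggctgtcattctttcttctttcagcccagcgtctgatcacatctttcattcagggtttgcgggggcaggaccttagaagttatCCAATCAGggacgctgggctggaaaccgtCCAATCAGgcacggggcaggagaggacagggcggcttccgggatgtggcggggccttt
ZNF208: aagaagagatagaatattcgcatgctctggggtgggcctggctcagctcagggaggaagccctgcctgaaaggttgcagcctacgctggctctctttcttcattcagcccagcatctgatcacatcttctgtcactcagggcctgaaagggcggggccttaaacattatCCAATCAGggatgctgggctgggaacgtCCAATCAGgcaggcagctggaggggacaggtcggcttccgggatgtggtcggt

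These windows are chr19:21081953-21082202 (plus strand) for ZNF714, chr19:21141790-21142039 (plus) for ZNF431, chr19:21020407-21020656 (plus) for ZNF430, chr19:21836183-21836432 (minus) for ZNF43 and chr19:22010944-22011193 (minus) for ZNF208. In ZNF714, ZNF431 and ZNF43 the pair of octamers began 87 and 58 bases before the start, in ZNF430 86 and 57 bases, and in ZNF208 81 and 53 bases. CCAATCAG or its reverse complement CTGATTGG was in 26 of 26 member windows of 300 bases, against 3.97% of the 35116 windows in the whole table. At least 2 copies were in 13 of the 26, against 0.487% of all windows. A second word, CTTCCGGG or its reverse complement CCCGGAAG, was in 18 of the 26 (69.2%) against 3.90% of all windows. Both words were chosen after the sequences were read, and a match is a description of letters, not a bound site.

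The octamer was in 6 of 6 windows of expressed members and in 6 of 6 windows of members at 0 counts in every library. CTTCCGGG was in 5 of the 6 expressed and 4 of the 6 silent members. The number of CG dinucleotides ranged from 9 to 14 in the expressed members (median 10) and from 8 to 16 in the other 20 (median 10), with a median of 14 over all windows. Over the 325 pairs of members, identity of the aligned windows had a median of 76.95% and ran from 48.89% to 91.0%. The most alike pair was ZNF714 and ZNF431, which are also the members with the highest mean CPM. Identity did not follow level in other members. ZNF486 and ZNF626 shared 87.46% at means of 0 and 0.043 CPM. The expressed ZNF708 and ZNF675 had median identities to the other windows of 57.42% and 65.67%.

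Most of the cluster was silent or close to it in all 4 libraries. ZNF43, ZNF66, ZNF99, ZNF486, ZNF676, ZNF682, ZNF729, ZNF730 and ZNF737 were at 0 counts throughout, and 18 others were above 0 somewhere with a mean under 1 CPM. A mean of at least 1 CPM was reached by 20.6% of the 34 members. The same share was 32.1% of 28 zinc finger genes with a ZNF symbol between 51 and 53 Mb of chromosome 19. It was 66.0% of 50 such genes from 56 Mb to its end, 75.2% of 363 elsewhere, and 46.4% of all genes. Elsewhere here and below means every other non-member ZNF gene, including ZNF723 and ZNF724, which lie among the members, and those in other parts of chromosome 19. The lowest expressed member, ZNF675, had a mean of 3.16 CPM, and just under the limit were ZNF506 at 0.702 and ZNF91 at 0.597 CPM.

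**Figure D1:**
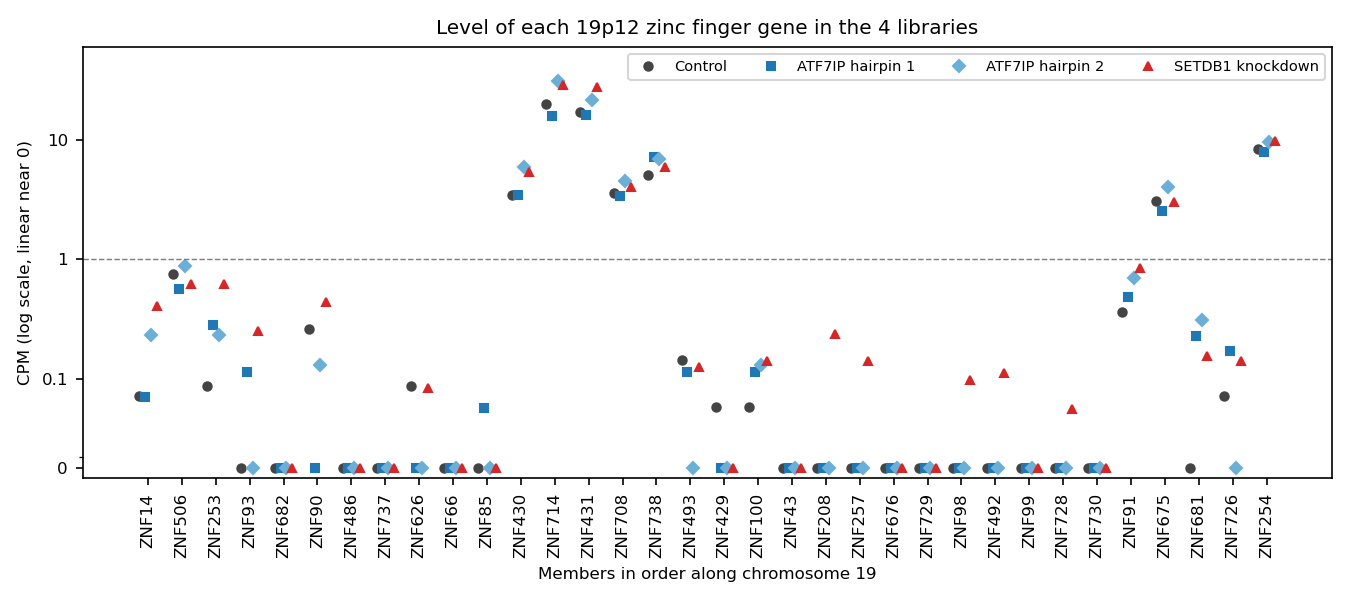
CPM of each of the 34 members (y axis, log scale that turns linear near 0) in their order along chromosome 19 (x axis), with 1 marker for each library and a dashed line at 1 CPM. ZNF430 to ZNF738 form an unbroken run of 5 expressed members, most others lie under 1 CPM, and 5 of the 8 members from ZNF208 to ZNF728 are above 0 in SETDB1 knockdown alone, with the other 3 at 0 in every library.

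Expressed members sat side by side. ZNF430, ZNF714, ZNF431, ZNF708 and ZNF738 are the members at places 12 to 16 of the 34 along the chromosome, a stretch of 368 kb from 21020657 to 21388582. The other two, ZNF675 (23652801 to 23687212) and ZNF254 (24033449 to 24129968), lie at the end near the centromere. ZNF85, the member before the run, was above 0 only in ATF7IP hairpin 1, with 4 counts, and ZNF493, the member after it, had 10 counts in Control and 8, 0 and 9 in the knockdowns. The 7 expressed members gave 96.9% of the cluster's counts in Control and 94.99% to 96.97% in the knockdowns.

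Level per length set the same 7 genes in another order. In CPM per kb of GENCODE exons, Control held ZNF714 at 2.48, ZNF738 at 1.30, ZNF431 at 1.21, ZNF254 at 1.10, ZNF708 at 0.828, ZNF430 at 0.506 and ZNF675 at 0.4515. Control is 1 library, so neighbours in this order cannot be told apart by replicate spread. ZNF714 was above every other member per length in each library.

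Values of a gene in the 4 libraries follow from here in a fixed order, Control first, then hairpins 1 and 2 against ATF7IP, then SETDB1 knockdown. ZNF714 (chromosome 19, 21082203 to 21125094) was at 19.95, 15.96, 31.03 and 28.98 CPM. Its 2 ATF7IP libraries fell on either side of Control, and hairpin 2 and SETDB1 knockdown were the high ones. ZNF431 (21142040 to 21196053) was at 17.1, 16.1, 21.65 and 27.55 CPM, with SETDB1 knockdown highest and hairpin 1 just under Control. ZNF430 (21020657 to 21060050) was at 3.47, 3.49, 5.94 and 5.425 CPM, so hairpin 1 lay at the Control level and the other 2 knockdowns above it.

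ZNF738 (21359000 to 21388582) was at 5.08, 7.24, 6.92 and 5.945 CPM. Both ATF7IP hairpins were above Control, by 0.51 and 0.44 on the log2 scale, and it was the one expressed member with hairpin 1 highest. ZNF708 (21291160 to 21329410) was at 3.58, 3.37, 4.56 and 4.02 CPM, and its 4 libraries stayed close together. ZNF254 (24033449 to 24129968) was at 8.36, 7.94, 9.65 and 9.88 CPM, with the smallest spread of the 7 relative to its level. ZNF675, whose protein was described as an inhibitor of the signalling adaptor TRAF6, was at 3.06, 2.565, 4.01 and 3.01 CPM, with SETDB1 knockdown at the Control level.

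**Figure D2:**
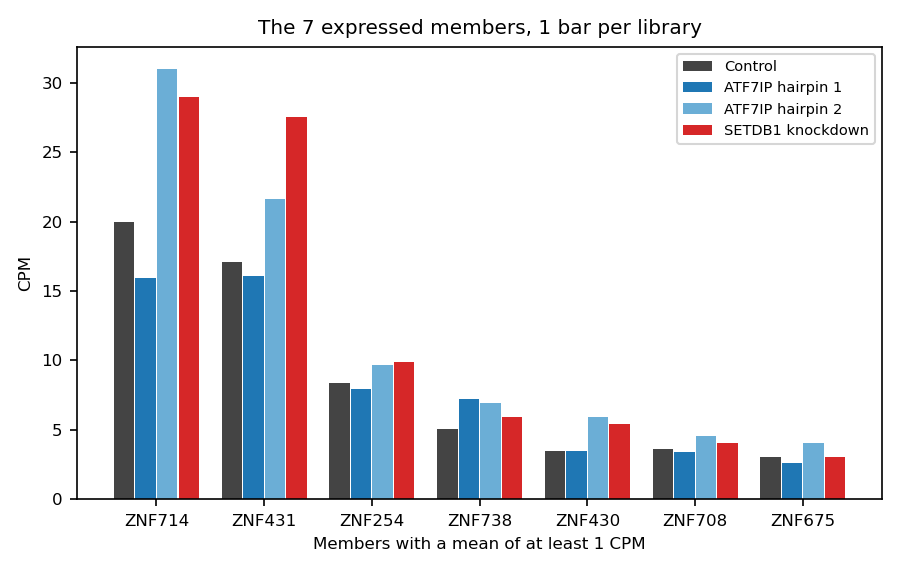
CPM (y axis) of the 7 expressed members (x axis), with 1 bar per library and no error bar because each bar is a single library. ZNF714 and ZNF431 are highest in ATF7IP hairpin 2 or SETDB1 knockdown, and ATF7IP hairpin 1 stays at or under Control for 6 of the 7 genes to within 0.01 on the log2 scale.

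ATF7IP knockdown against Control asked whether the cluster changed when the SETDB1 partner was depleted. The edgeR quasi-likelihood test called 0 of the 17 members that passed the filter on low counts, 7 expressed and 10 low, against 0.0769% of the 16900 genes tested. At an unadjusted p under 0.05 it took 1 member, ZNF681, against 8.94% of all genes. ZNF681, at 0 counts in Control, passed the filter only through knockdown libraries, so its p-value is no evidence of a rise. limma called 0 of 17 as well, as did DESeq2 among the 9 to which it gave an adjusted p. Of the expressed members, 0 of 7 were at least 2-fold higher in both hairpins, against 0.959% of the 13132 genes with a mean of at least 1 CPM, and 0 were at least 2-fold lower, against 1.57%. The largest log2 fold changes were 0.48 ± 0.34 (SE) for ZNF738 (edgeR adjusted p = 0.787) and 0.44 ± 0.42 for ZNF430 (edgeR adjusted p = 0.857). Their 95% intervals ran from −0.29 to 1.25 and from −0.51 to 1.40. The smallest was 0.07 ± 0.32 for ZNF254, with an interval from −0.65 to 0.80. These intervals do not show that the genes stayed level.

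The 2 ATF7IP hairpins left ATF7IP at nearly the same level but differed from each other across the cluster. All 7 expressed members were above Control in hairpin 2, against 50.0% of all genes, with a median log2 difference of 0.39. In hairpin 1, 2 of 7 were above Control, against 50.0% of all genes, and the median was −0.09. Set directly against hairpin 1, hairpin 2 was higher for 6 of the 7 members, against 48.0% of all genes, with a median of 0.43 where all genes had −0.02. The exception was ZNF738, which lay above hairpin 1 as well when libraries were scaled by their totals alone. With 1 library per hairpin this difference has no replicate check. Other zinc finger genes moved the same way, with medians of hairpin 2 over hairpin 1 of 0.36 between 51 and 53 Mb, 0.34 from 56 Mb to the end of the chromosome and 0.18 elsewhere.

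SETDB1 knockdown against Control asked the same of the methyltransferase, with 1 library on each side. edgeR called 0 of 17 members, against 0.0710% of all genes, and 2 had an unadjusted p under 0.05, ZNF253 and ZNF681, against 4.71%. Both had too few counts in Control to pass the filter and entered only through knockdown libraries, so these p-values are no evidence of a rise. DESeq2 and limma called 0, with no share of all genes counted for either. Of the 7 expressed members 0 were at least 2-fold higher, against 1.33% of genes, and 0 at least 2-fold lower, against 1.84%. The largest differences were 0.69 ± 0.34 (SE) for ZNF431, with an interval from −0.08 to 1.46, 0.65 ± 0.48 for ZNF430 and 0.54 ± 0.44 for ZNF714 (edgeR adjusted p = 1 for each). ZNF675 was at −0.03 ± 0.49, with an interval from −1.13 to 1.07. The other 6 were above Control, where 49.4% of all genes were, and the median of the 7 was 0.24. Other zinc finger genes were shifted the same way, with medians of 0.28 between 51 and 53 Mb, 0.22 from 56 Mb to the end of the chromosome and 0.10 elsewhere.

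SETDB1 knockdown against ATF7IP knockdown compared the partner with the enzyme. edgeR called 0 of 17 members, against 0.166% of all genes, and 1 member (ZNF208) had an unadjusted p under 0.05, against 9.88%. ZNF208 passed the filter through SETDB1 knockdown alone, with 17 counts there and 0 in the other libraries, so its p-value is no evidence of a rise. limma called 0 of 17 and DESeq2 0 of the 9 with an adjusted p. None of the 7 expressed members was at least 2-fold above both hairpins (1.56% of genes) or below both (1.14%). The extremes were 0.55 ± 0.29 (SE) for ZNF431 (edgeR adjusted p = 0.587) and −0.25 ± 0.34 for ZNF738 (edgeR adjusted p = 0.889). ZNF714 was 0.30 ± 0.37 and ZNF708 0.02 ± 0.38. For ZNF714, ZNF430 and ZNF708 the direction rested on hairpin 1, since hairpin 2 alone put SETDB1 knockdown lower, at log2 differences of −0.10, −0.13 and −0.18.

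**Figure D3:**
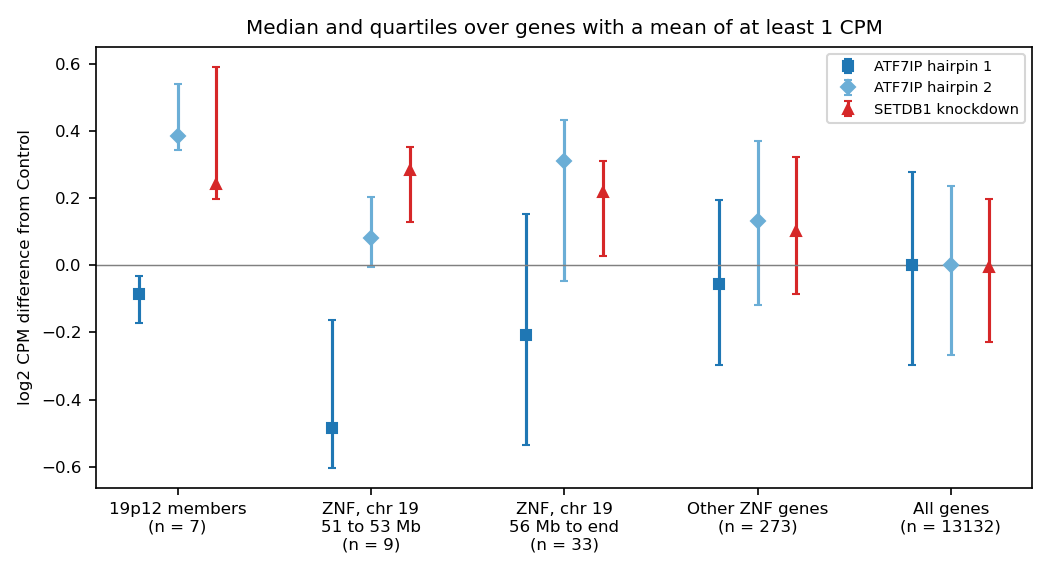
Median (marker) and quartiles (bars) of the log2 CPM difference from Control (y axis) over genes whose mean reached 1 CPM: the members, 3 other sets of zinc finger genes and all genes (x axis), with 1 colour per knockdown library. All 3 contrasts share the Control library, and for the members the medians are −0.09, 0.39 and 0.24.

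Summed over the 34 members, the cluster was at 62.5, 58.8, 86.4 and 89.3 CPM. The ratio to Control was 0.941 for hairpin 1, 1.38 for hairpin 2 and 1.43 for SETDB1 knockdown. Exact 95% intervals that cover counting error alone were 0.863 to 1.025, 1.28 to 1.49 and 1.32 to 1.54. The other zinc finger genes summed to 102.7, 77.65, 101.2 and 114.6 CPM between 51 and 53 Mb. From 56 Mb to the end of the chromosome they summed to 458.9, 421.2, 520.5 and 524.2 CPM, and elsewhere to 7251, 6954, 7872 and 7750 CPM. A sum does not depend on how fragments were split between neighbouring copies within the cluster. ZNF714 and ZNF431 gave 59.2% of the summed counts in Control and 54.4%, 61.0% and 63.3% in the knockdowns. In bulk RNA, fewer cells that express a gene and less RNA of it per cell cannot be told apart.

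The 27 members with a mean under 1 CPM rest on few fragments. About 4 counts per fragment were assumed from the steps of the low counts, so 3 fragments, or 12 counts, served as the floor under which a gene was not taken as detected, 0.156 to 0.173 CPM. Above the floor were 10, 11, 12 and 14 of the 34 members. Over all genes 15433, 15445, 15627 and 15589 were above it, with ATF7IP hairpin 2 and not SETDB1 knockdown highest. Above 0 counts were 17, 17, 14 and 23 of the 34. Over all genes the number above 0 was 18291, 18256, 18479 and 18572, so SETDB1 knockdown was also highest there, by a smaller proportion.

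Of the 17 members at 0 counts in Control, 7 were above 0 in SETDB1 knockdown: ZNF93, ZNF208, ZNF257, ZNF98, ZNF492, ZNF728 and ZNF681. Among all genes at 0 in Control 13.3% were above 0 there. Among the 58 such zinc finger genes of the elsewhere group, which holds ZNF723 and ZNF724 of this interval, it was 32.8%. In ATF7IP hairpin 1 there were 3 of 17 (all genes 11.3%) and in hairpin 2 1 of 17 (all genes 12.2%). In the reverse direction, 1 of the 11 members at 0 in SETDB1 knockdown, ZNF429, was above 0 in Control, against 10.7% of all genes. For hairpin 1 the reverse count was 3 of 17, against 11.6%, and for hairpin 2 it was 4 of 20, against 10.5%. So hairpin 1 had as many members at 0 that Control held as the other way round, and hairpin 2 had more. Only ZNF93 and ZNF208 of the 7 passed the floor, 2 of 17 against 1.56% of all genes. ZNF681 passed it in either ATF7IP hairpin, 1 of 17 against 1.20% in hairpin 1 and 1.49% in hairpin 2. The higher ribosomal RNA share of the SETDB1 library, given above, moved with this count, and its part was not tested.

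Summed, these 27 members had 34, 39, 50 and 80 fragments. The ratio to Control was 1.13 for hairpin 1 (95% interval 0.695 to 1.85), 1.35 for hairpin 2 (0.845 to 2.12) and 2.30 for SETDB1 knockdown (1.52 to 3.54), with counting error alone. In alternatives chosen after seeing the data, with ZNF506, the highest of them, left out the SETDB1 ratio was 3.23 (1.92 to 5.44), and without ZNF253, the member with the largest difference in counts, it was 2.08 (1.345 to 3.27). For the 126 other zinc finger genes with a mean under 1 CPM the SETDB1 ratio was 1.42 (1.18 to 1.70), and for all 15146 genes under 1 CPM it was 1.06.

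Low members with counts in SETDB1 knockdown alone lay near each other, on few fragments of 1 library. A stretch of 8 members from ZNF208 to ZNF728 (21939815 to 23003176), noticed after the values were seen, was at 0 counts in Control and in both ATF7IP hairpins. In SETDB1 knockdown 5 of the 8 were above 0, where 13.3% of all genes at 0 in Control were. The counts were 17 for ZNF208, 10 for ZNF257, 7 for ZNF98, 8 for ZNF492 and 4 for ZNF728. The non-member genes measured in this stretch, ZNF723, GOLGA2P9, LINC01785 and LINC01233 among them, were at 0 counts in all 4 libraries. The 46 counts of the 8 members together, about 12 fragments, were 3.75 times the Control floor, which is set for a single gene. That multiple carries no counting error, and the stretch was picked by these same values. ZNF208 and the silent ZNF676 lie in a region linked to telomere length in association studies. ZNF98 and ZNF492 cannot be told apart well, since 33.05% of the stretches of 100 bases in the longest ZNF98 coding transcript recur in ZNF492. Between any other pair of members it was at most 0.794%, while 4.50% of ZNF626, 4.20% of ZNF254, 3.26% of ZNF98, 1.86% of ZNF431 and 1.40% of ZNF492 recurred in a single annotated gene outside the list.

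At the end away from the centromere, ZNF253 had 6, 20, 18 and 44 counts, with Control lowest and SETDB1 knockdown highest. Its ratio of SETDB1 knockdown to Control was 7.17, from 44 against 6 counts, and edgeR did not call it (adjusted p = 1). The 95% interval, 1.17 to 49.9 with counting error alone, came from 11 against 2 fragments, rounded to whole numbers, and so is not centred on that ratio. ZNF14 had 5, 5, 18 and 29 counts, and ZNF90 had 18, 0, 10 and 31, so SETDB1 knockdown was highest for both. ZNF506 went against them, with 52, 40, 67 and 44 counts and no order that followed the knockdowns.

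ZNF91 and ZNF93 are known repressors of the SVA and LINE-1 retrotransposons. ZNF91 (23305004 to 23395471) had 25, 34, 54 and 60 counts. All 3 knockdowns were above Control, the most in SETDB1 knockdown with a ratio of 2.35. The 95% counting intervals of the ratios, 0.400 to 4.59, 0.763 to 6.71 and 0.896 to 7.69, all include 1. ZNF93 (19900946 to 19935575) had 0, 8, 0 and 18 counts. In SETDB1 knockdown its about 4 fragments were 1.47 times the floor in Control, a multiple to which no counting error was applied. No change of ZNF91 beyond counting error was detected.

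ZNF681 (23739195 to 23758891) was the member at 0 in Control and above 0 in all 3 knockdowns, with 16, 24 and 11 counts. It was at 1.31 times the Control floor in hairpin 1 (4 fragments) and 1.81 times in hairpin 2 (6 fragments), with no counting error applied. In SETDB1 knockdown ZNF681 was at or under the floor. Its edgeR adjusted p was 0.353 in ATF7IP knockdown and 1 in SETDB1 knockdown. ZNF100 had 4, 8, 10 and 10 counts and ZNF726 5, 12, 0 and 10, and neither passed the floor in any library. ZNF85, ZNF429, ZNF493 and ZNF626 had at most 10 counts anywhere.

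Genes of the repressor machinery were expressed throughout, with 16 of 16 above 1 CPM in every library. edgeR called 0 of 16 in either comparison with Control, and between the knockdowns it called ATF7IP higher and SETDB1 lower in SETDB1 knockdown (edgeR adjusted p = 0.00692 and 0.0380). The SETDB1 call was lost with DESeq2 size factors (edgeR adjusted p = 0.0778), without the filter on low counts (0.140) and with limma (0.0919). TRIM28, the KRAB scaffold, was at 326.4, 391.4, 287.8 and 260.3 CPM. ZNF274, a zinc finger protein known to bring SETDB1 to the ends of other zinc finger genes, was at 34.9, 38.85, 43.3 and 41.95 CPM.

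Non-member genes of the same interval were nearly all silent too. RefSeq places 157 other genes between ZNF14 and ZNF254, of which the table held 18, and 13 of these were at 0 counts in all 4 libraries. The highest of them was LINC01224, a long noncoding RNA gene at 23399233 to 23416074, at 0.417, 1.19, 1.003 and 0.464 CPM, with both ATF7IP hairpins above the other 2 libraries.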

How the data were processed

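Gene-level values of 4 polyA libraries were deposited as whole-number expected counts, with totals that differ between libraries. StringTie 2.2.1, HISAT2 2.2.1, the hg38 build and DESeq2 1.34.0 appear in the submitters' processing notes, without a stated role. The sources used here do not give the annotation, counting or strand setting, so reads of overlapping genes cannot be separated by strand. Low values piled up at 4 (489 Control genes, against 288 at 3 and 265 at 5), from which 4 counts per fragment were assumed.

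Members, lists and comparison groups were chosen with earlier results of these data known. CPM used TMM library sizes, and log2 CPM a prior count of 2. Differences were tested with edgeR 4.0.16 (quasi-likelihood, R 4.3.3) on all 4 libraries in 3 groups, after filterByExpr with a minimum count of 10, with Benjamini-Hochberg adjustment over 16900 genes and calls at 0.05. The test rests on 1 residual degree of freedom, the spread of the 2 ATF7IP hairpins, beside a median of 8.09 from the prior. It takes the lone Control and SETDB1 libraries to vary like the ATF7IP ones. A gene could pass the filter through 1 library, so a low member could enter the test only through the library where it was high. The labels do not say that libraries are separate cultures, so p-values measure only a spread that may be technical. DESeq2 (1.42.0), limma (3.58.1), other scalings and left-out libraries were alternatives. Shares of all genes called were counted for the main edgeR fit only, so the counts of members called in the alternatives have none beside them. The edgeR procedure was tested on simulated data, with large changes set in ATF7IP knockdown alone and only in better expressed genes. That test does not cover changes as small as those of the members, the low members or SETDB1 knockdown. Values in every library were planned for ZNF91, ZNF93 and members that led by mean CPM, by fold change or by crossing the floor, with counts for the others. Promoter words, the stretch from ZNF208 to ZNF728 and the further low members were chosen after their values were seen. Positions came from RefSeq, which matched 34 of 34 symbols, exon lengths and transcripts from GENCODE release 29. Ratios were taken from counts and their intervals from fragments rounded to whole numbers. Intervals of ratios cover counting error only, and multiples of the floor carry no counting error.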

Additional observations from a re-analysis of the deposited data

How the results depend on the processing

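Calls of members stayed at 0 in each comparison with DESeq2 size factors, no filter on low counts, DESeq2 and limma, and without the SETDB1 library (ATF7IP against Control) or the Control library (SETDB1 against ATF7IP). The smallest adjusted p of a member over these was 0.267, from edgeR in ATF7IP knockdown without the SETDB1 library. The median log2 fold change of the 7 expressed members was 0.13 in ATF7IP knockdown against Control, and ran from −0.09 to 0.39 when 1 hairpin was left out, so its direction rests on hairpin 2. For SETDB1 against ATF7IP knockdown it was 0.17, from −0.13 to 0.32 in the same way. In SETDB1 knockdown against Control it was 0.24, and 0.39 with a minimum mean of 5 CPM. With a floor of 3 counts in place of 12, chosen after seeing the data, 17 members were above it in Control, 17 in ATF7IP hairpin 1, 14 in hairpin 2 and 23 in SETDB1 knockdown.

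Leaving out 1 ATF7IP hairpin turned the sign of 12 single-gene values, untested and given here as ranges on the log2 scale. Against Control, ATF7IP knockdown ran from −0.32 to 0.64 for ZNF714, −0.0894 to 0.34 for ZNF431, −0.0857 to 0.35 for ZNF708, −0.25 to 0.39 for ZNF675, −0.0741 to 0.21 for ZNF254, −0.0301 to 0.13 for SETDB1 and −0.18 to 0.26 for TRIM28. SETDB1 against ATF7IP knockdown ran from −0.13 to 0.63 for ZNF430, −0.0983 to 0.86 for ZNF714, −0.18 to 0.25 for ZNF708, −0.41 to 0.23 for ZNF675 and −0.0467 to 0.11 for ZNF274. The cause was not tested. ATF7IP in its own knockdown, with an edgeR adjusted p of 0.0571, passed under DESeq2 (adjusted p = 9.49e-06) and, with edgeR, without the SETDB1 library (adjusted p = 0.0241). SETDB1 in its own knockdown passed under DESeq2 (adjusted p = 2.55e-05). No paired analysis was possible because only the 2 ATF7IP libraries carry a number, which names a hairpin. Depth limits the 27 members under 1 CPM, which hold 34 to 80 fragments a library.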
